A study of Homo sapiens with 4 samples.

Results

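Most crosslinked reads of a gene bound by the RNA helicase DHX36 lay in its 5'UTR, CDS, 3'UTR or introns, but for some genes they did not. The genes described here were those with at least 50 crosslinked reads in the PAR-CLIP of FH-DHX36-E335A, at least 50% of which were in none of these 4 annotations. There were 1025 such genes, called outside genes below. They made up 13.0% of the 7899 genes with at least 50 FH-DHX36-E335A reads, in a table of 26490 genes. The genes were chosen by their FH-DHX36-E335A reads, in all and outside, so those values are given as a description. The FH-DHX36 reads played no part in the choice.

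DHX36, also known as RHAU or G4R1, is a DEAH-box helicase that binds and unwinds G-quadruplexes, in which short runs of guanines stack into planes. It is known for acting on mRNAs that hold such runs, and the E335A substitution in its helicase core leaves it able to bind RNA but not to unwind it. In PAR-CLIP, cells take up 4-thiouridine, UV light joins the labeled RNA to the protein, and reverse transcription turns the joined T into C, so that overlapping reads with this change form a cluster that marks a contact.

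Both cell lines were HEK293, a human embryonic kidney line, with a tetracycline-inducible FLAG/HA-tagged transgene. FH-DHX36 was isoform 2 of the protein, and FH-DHX36-E335A was isoform 1 with the mutation, so that isoform and mutation cannot be told apart. Tetracycline was given at 500 ng/ml for 15 h before the cells received 365 nm UV light for 5 min. The cells still held their endogenous DHX36. Each line was sampled in 2 replicates, but the table gives 1 value per cell line. The spread between replicates was therefore not known here, and no test between the cell lines was possible. The 95% Wilson intervals below cover counting error only, since PCR copies are not independent molecules and genes are not replicates. Of the HEK293 markers looked for, VIM was itself an outside gene, with 2435 reads in FH-DHX36-E335A and 7676 in FH-DHX36, and KRT8 had 0 and 92. KRT18, NEFM, PAX2 and LHX1 and the markers of other cell types ALB, HBB, PTPRC and CD3E were listed at 0 in both, which says that no cluster was listed and not that the genes were silent.

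The table held 8752127 crosslinked reads for FH-DHX36-E335A and 2160413 for FH-DHX36. Reads outside the 4 annotations made up 21.4% of the former and 16.7% of the latter. The outside genes held 60.8% of all such reads in FH-DHX36-E335A, which their choice favoured, and 61.5% of them in FH-DHX36, which it did not use. The table does not say what lay under these reads. The annotation scheme of the authors' pipeline also has classes for start and stop codons, for exon boundaries, for transcripts with retained introns or nonsense-mediated decay and for noncoding RNAs and pseudogenes, and the part of each of these in the outside reads was not tested.

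The outside genes were almost without exception protein-coding genes. By the GENCODE annotation, 1018 of the 1025 were protein-coding and 6 could not be matched. The only lncRNA was MALAT1, an abundant nuclear noncoding RNA. The class makeup was that of the background, since 7867 of the 7899 genes with enough reads were protein-coding and 4 were lncRNA genes. For noncoding genes in the table next to no clusters were listed, which does not say that their RNAs were free of contact. None of 25 lncRNA hosts of small nucleolar RNAs, of 1966 microRNA genes and hosts, or of 450 structured small RNA genes had a FH-DHX36-E335A read. Of 22 well-known lncRNAs, MALAT1 and DLEU1 had reads, and DLEU1 was no outside gene with 29.4% of its 374 reads outside. Of 886 symbols starting with LINC, LINC00493 and LINC00116 had reads and both were outside genes. Both are now annotated as coding for small proteins, SMIM26 and MTLN.

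For MALAT1 every read was outside, with 3442 reads in 22 clusters in FH-DHX36-E335A and 1304 reads in 20 clusters in FH-DHX36. MT-ND4L, which encodes a subunit of mitochondrial complex I and overlaps MT-ND4, was the only outside gene among the 11 mitochondrially encoded genes with enough reads. All 294 of its FH-DHX36-E335A reads were outside, as were 56.0% of its 1829 FH-DHX36 reads.

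The 15 outside genes with the most reads had diverse roles. EEF2, the elongation factor that moves the ribosome along the mRNA, had 39253 FH-DHX36-E335A reads, of which 33313 (84.9%) were outside and 5940 were in the CDS. HNRNPA2B1, a nuclear RNA-binding protein, had 26851 reads with 81.5% outside. HIST1H4C, a histone H4 gene, had 23235 reads, all outside. PPP1CC, a catalytic subunit of protein phosphatase PP1, had 23010 reads with 97.3% outside, and EIF2S3, the gamma subunit of the initiation factor eIF2, had 18524 with 96.9% outside. The other 10 were JUN, HNRNPH3, HIST1H4H, PSMA4, HIST1H4B, CCT3, MORF4L2, U2AF1, BTG1 and RFC3, with 10283 to 18335 reads and shares between 58.6% for JUN and 100% for HIST1H4H.

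**Figure D1:**
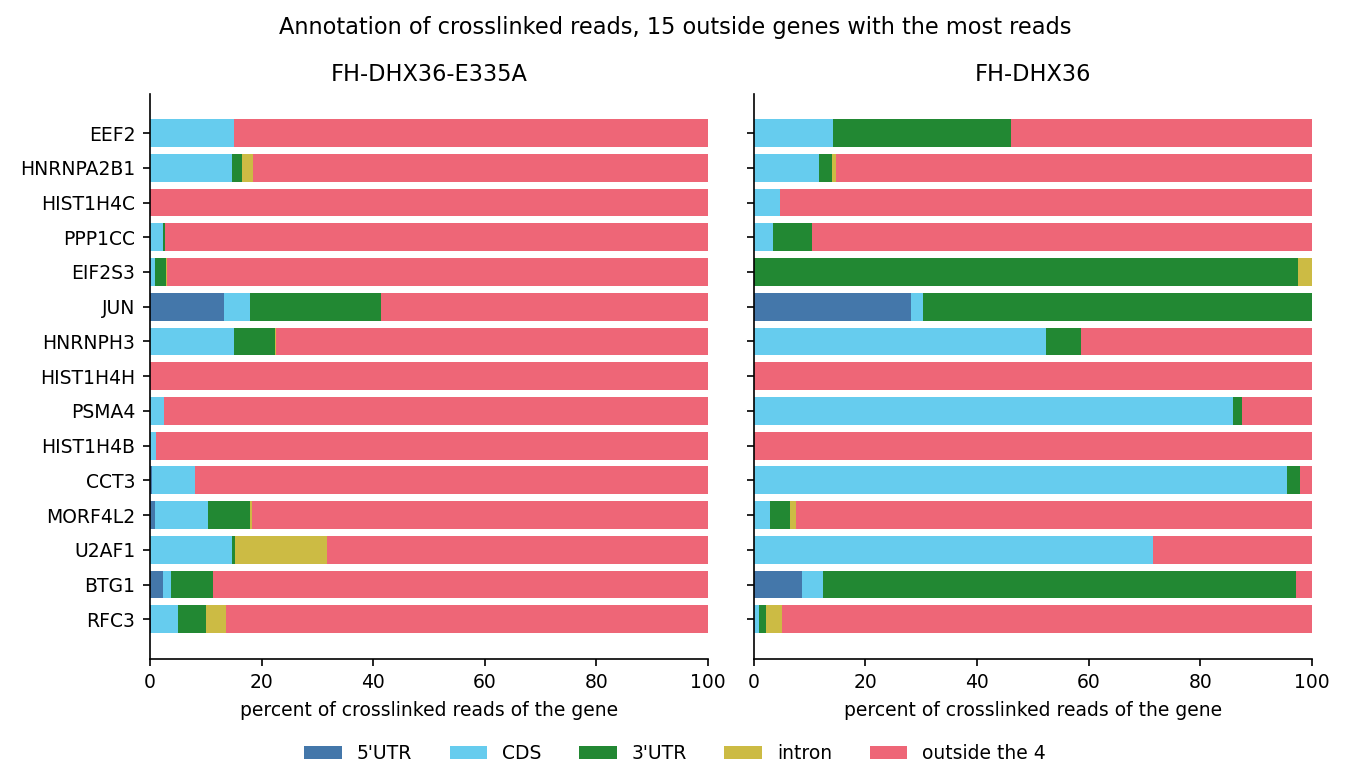
Percent of crosslinked reads of each gene in the 5'UTR, CDS, 3'UTR, introns or outside these 4 annotations, for the 15 outside genes with the most FH-DHX36-E335A reads, in FH-DHX36-E335A (left) and FH-DHX36 (right). The outside part exceeded 50% in every gene on the left, where it chose the genes, and ranged from 0% in EIF2S3 and JUN to 100% in HIST1H4H and HIST1H4B on the right.

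Because start codons are a class of their own in the pipeline, the sequence around the start codon is shown for some of these genes, as it reads in the spliced GENCODE transcript on GRCh37, 5' to 3', with the ATG in capitals. EEF2 lies at chr19:3984334-3985390 on the minus strand and spans a splice junction, PPP1CC at chr12:111180495-111180524 (minus), EIF2S3 at chrX:24073074-24073103 (plus), HIST1H4C at chr6:26104164-26104193 (plus) and HIST1H4H at chr6:26285710-26285739 (minus). Whether the clusters lay at these positions was not tested, since the table gives no cluster positions.
EEF2 start codon: ccatccgccaccATGgtgaacttcacggta
PPP1CC start codon: ggtgggaaggcgATGgcggatttagataaa
EIF2S3 start codon: tcttttggcaacATGgcgggcggagaagct
HIST1H4C start codon: gcgataggaatcATGtctggtcgcggcaaa
HIST1H4H start codon: agttgcttagtcATGtctggccgtggtaaa

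Most outside genes had few clusters outside. Of the 1025 genes, 466 had 1 cluster outside, 299 had 2, 140 had 3 and 120 had 4 or more, and 2222 of their 5781 clusters were outside. The median number of reads per outside cluster was 208 over the 1025 genes, and per inside cluster 48.9 over the 852 genes that had one, values that the choice of genes by their outside reads favours. Counted by clusters instead of reads, 518 of the 1025 reached 50%. In BTG1, an antiproliferative gene, 1 cluster of 7 held 9734 of 10970 reads, and in EIF2S3 2 clusters of 11 held 17958 of 18524. In the FH-DHX36 PAR-CLIP, which the rule did not use, the median was 121 reads per outside cluster over 376 genes and 72.9 per inside cluster over 508. Of the 261 outside genes with both kinds of cluster in FH-DHX36, the mean outside cluster was deeper than the mean inside cluster in 179 (68.6%, 95% interval 62.7 to 73.9). In the other genes this held for 317 of 646 (49.1%, 45.2 to 52.9).

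The median share of FH-DHX36-E335A reads outside was 74.7%, with quartiles of 61.9% and 92.2%. All reads were outside in 173 genes, and 282 genes reached 90%. At the threshold, NUPL2 (551 of 1102 reads), ZHX1-C8orf76 (75 of 150) and MREG (43 of 86) had exactly 50% outside, and ZSCAN29 (985 of 1971), UBA2 (1792 of 3590) and ZNF136 (172 of 345) were just below it.

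In the FH-DHX36 columns, 623 of the 1025 genes (60.8%) had at least 50 reads, 129 had fewer and 273 had none. Of the 623 genes, 247 (39.6%, 35.9 to 43.5) again had at least 50% of their reads outside. Over all 4464 genes with at least 50 FH-DHX36 reads the same rule was met by 11.1%, and among the other genes with at least 50 reads in both PAR-CLIPs by 223 of 3625 (6.15%, 5.42 to 6.98). Another 247 outside genes had no FH-DHX36 read outside at all (39.6%), compared with 2912 of the 3625 other genes (80.3%), and 129 lay between. The median FH-DHX36 share was 29.6% (quartiles 0% and 88.2%). The values thus sat largely at the ends of the scale, with 115 genes at 100%.

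**Figure D2:**
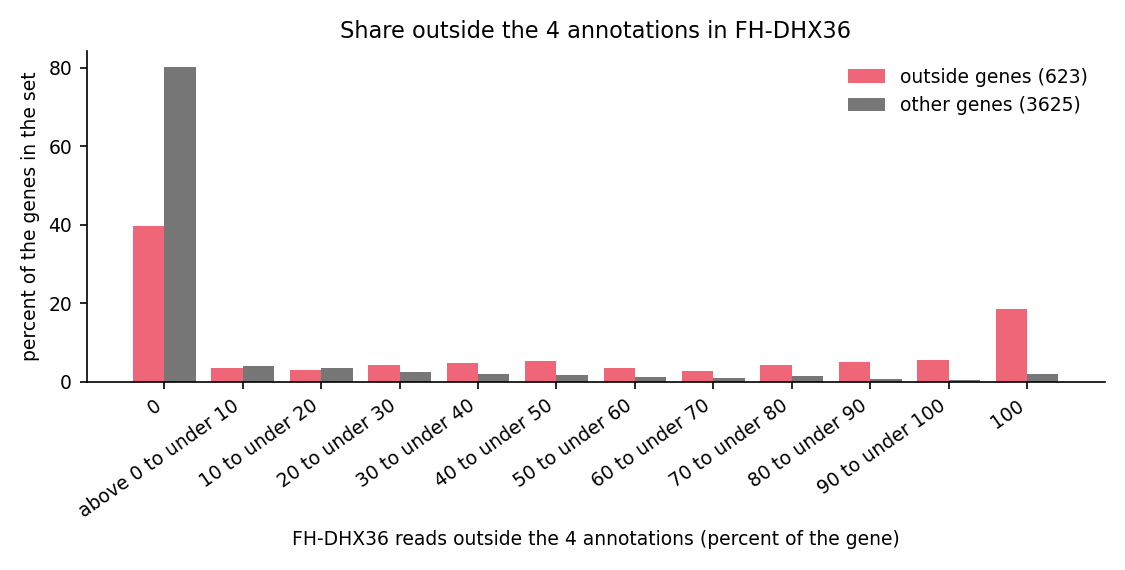
Distribution of the share of FH-DHX36 reads outside the 4 annotations (x axis, percent of the reads of a gene) over the 623 outside genes and the 3625 other genes with at least 50 reads in both PAR-CLIPs (y axis, percent of the genes in each set). Of the outside genes, 39.6% were at 0 and 18.5% at 100%, against 80.3% and 1.85% of the other genes.

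The share of genes that met the rule again was larger the more of their FH-DHX36-E335A reads were outside. It was 31.6% for genes at 50 to under 60% in FH-DHX36-E335A (42 of 133), 40.9% at 75 to under 90% (61 of 149) and 61.1% at 100% (44 of 72), although the intervals of neighbouring bins overlapped. Below the threshold it was 22.1% for genes at 25 to under 50% (126 of 570) and 2.48% for genes at 0 (41 of 1652). The 72 genes at 100% include 15 with 4 or more clusters, and all 15 were at 100% in FH-DHX36 too. Shared annotation could fix that outcome, as described below, so these 15 are no independent recurrence. Their part in the rise was not tested. The number of outside clusters moved with the share that met the rule as well. With 1 outside cluster in FH-DHX36-E335A, 78 of 230 genes (33.9%, 28.1 to 40.3) met the rule in FH-DHX36. With 3, 46 of 112 did (41.1%, 32.4 to 50.3), and with 4 or more, 51 of 96 did (53.1%, 43.2 to 62.8). The same 15 genes are among these 96, so this rise is not independent of shared annotation either. Deeper coverage in FH-DHX36 went with a higher share, from 38.6% of 752 genes with any FH-DHX36 read (35.2 to 42.1). The share was 47.3% of 91 genes with at least 1000 (37.3 to 57.4) and 61.1% of 36 with at least 2000 (44.9 to 75.2). These sets are nested, and the interval at 1000 covers the 38.6%. For the other genes the share stayed between 4.26% and 6.15%.

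**Figure D3:**
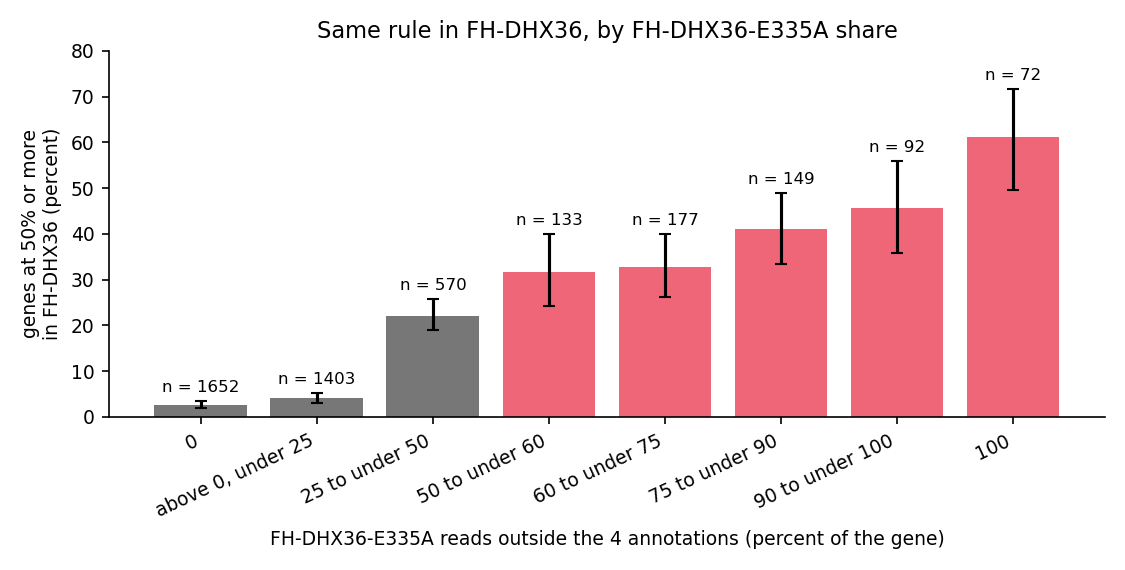
Percent of genes with at least 50% of their FH-DHX36 reads outside the 4 annotations (y axis), by the share of their FH-DHX36-E335A reads outside (x axis, percent), with 95% Wilson intervals. Red bars are the outside genes and grey bars the other genes, all with at least 50 reads in both PAR-CLIPs, and the bars rise from 2.48% to 61.1%. The last bar includes 15 genes with 4 or more clusters that were at 100% in both PAR-CLIPs, which are no independent recurrence.

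Among the genes whose reads were mostly outside in both PAR-CLIPs, HNRNPA2B1 had the most FH-DHX36 reads, 30421 with 85.2% outside. OAZ1, the antizyme that directs ornithine decarboxylase to the proteasome, had 9225 reads with 94.2% outside in FH-DHX36-E335A and 15276 with 97.2% in FH-DHX36. POLR1C, a subunit shared by RNA polymerases I and III, had 2757 with 82.4% and 10065 with 99.0%, the latter in 1 cluster of 9965 reads. ERH had 9733 with 66.9% and 8685 with 92.6%, and HNRNPM, another hnRNP protein, had 6158 with 4621 of them and 6128 with 88.1%. In these genes the outside reads were 1 to 5 clusters in FH-DHX36.

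Other genes with deep coverage in both PAR-CLIPs had no or few outside reads in FH-DHX36. EIF2S3 had 1346 FH-DHX36 reads, of which 1314 were in the 3'UTR and none outside. JUN, a subunit of the AP-1 transcription factor, had 10742 outside reads in 2 clusters in FH-DHX36-E335A and none among its 3840 FH-DHX36 reads, which lay in the 3'UTR (2672), the 5'UTR (1082) and the CDS (86). The splicing factor RBM17 had 7279 of 8579 reads outside in FH-DHX36-E335A, and 3468 of its 3513 FH-DHX36 reads in the CDS. PITHD1 had 4264 of 4615 outside, and all 2767 of its FH-DHX36 reads in the 3'UTR. RBBP7, a histone-binding protein, and GRB2, a signaling adaptor, were also at 0, with 2493 and 1525 FH-DHX36 reads. PSMA4 and CCT3, subunits of the proteasome and of the cytosolic chaperonin, had 12.5% and 2.19% outside, and most of their FH-DHX36 reads lay in the CDS (3567 of 4157 and 2709 of 2836).

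In the sum over the 247 genes at 0, FH-DHX36 reads were 40.9% in the 3'UTR, 39.9% in the CDS, 15.2% in the 5'UTR and 4.02% in introns. Over all 1025 genes, 53.0% of FH-DHX36 reads were outside, while the CDS held 23.6% and the 3'UTR 15.6%, and over the 6874 other genes with enough FH-DHX36-E335A reads 7.93% were outside and 44.5% in the 3'UTR. A few genes carried much of this sum. The 15 genes with the most outside reads, ranked separately in each PAR-CLIP, held 48.9% of the outside reads of the set in FH-DHX36 and 20.7% in FH-DHX36-E335A.

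Some genes met the rule in FH-DHX36 alone. Of the 494 genes that met it there, 247 were outside genes, 223 had enough FH-DHX36-E335A reads but under 50% of them outside, and 24 had under 50 such reads. G3BP1, a stress granule protein, had 15.9% of 34036 reads outside in FH-DHX36-E335A and 60.7% of 8174 in FH-DHX36. PTAR1 had 0 of 392 and 2396 of 2436.

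For 27 genes with 4 or more clusters in FH-DHX36-E335A, not a single cluster was in any of the 4 annotations. MALAT1 was 1 of them, and the other 26 are protein-coding genes with a coding transcript in the annotation used here. They included CASP8AP2 (27 clusters, 4264 reads), NEFL, the light neurofilament (21 clusters, 2214 reads), SLC39A9, VPS72, GTF3A, C11orf95, UHRF1 and RXRA, a nuclear receptor (7 clusters, 929 reads). Of these 27 genes, 21 had FH-DHX36 reads, and in all 21 every read was again outside. Both PAR-CLIPs were annotated alike, so a gene without these 4 annotations in the authors' release would be at 100% in both. Coding status was looked up only in the later release used here, so the 21 genes are no independent recurrence. The 27 genes had 208 clusters in FH-DHX36-E335A and 69 in FH-DHX36, none of them in any of the 4 annotations. At the minimum of 50 FH-DHX36 reads, 15 of the 27 genes remained, and all 15 were at 100%. Of the 36 genes with as many FH-DHX36 reads and all FH-DHX36-E335A reads outside in 1 cluster, 12 were at 100% in FH-DHX36 and 20 were at 0.

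Histone genes were outside genes far more often than the background of 13.0%. Of 73 replication-dependent histone genes in the table, 35 had at least 50 FH-DHX36-E335A reads and 29 of these were outside genes, which were 6 of 7 H4 genes, 10 of 11 H2A, 8 of 9 H2B, 3 of 5 H3 and 2 of 3 H1. These genes code for the core and linker proteins of chromatin, and their mRNAs end in a stem-loop in place of a poly(A) tail. In FH-DHX36, 8 of the 18 histone genes with at least 50 reads met the rule again, near the 39.6% of all outside genes, and 5 of the 8 were H4 genes. HIST1H4H had 16016 reads in 1 cluster in FH-DHX36-E335A and 5626 in 2 clusters in FH-DHX36, all outside. HIST1H4B had 98.8% of 14120 and 100% of 4109 outside, HIST1H4A 90.4% of 9759 and 97.1% of 3034, and HIST1H4E 73.0% of 4620 and 71.1% of 612. HIST1H4D was at 100% of 3611 and 26.3% of 483. HIST1H3B, in contrast, had all of its 7721 FH-DHX36-E335A reads outside and all of its 1297 FH-DHX36 reads in the CDS, and the H1 gene HIST1H1C had 84.5% of 8136 and 18.4% of 1158 outside. The coding sequences of the 6 H4 genes, each 312 nt long, were 79.8 to 89.1% identical to each other over 15 pairs. How reads that match several histone genes were placed is not given in the sources used here, so that the counts of single histone genes are uncertain. The H4 genes held 6.06% of the outside reads of the set in FH-DHX36-E335A and 8.19% in FH-DHX36.

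Other families were taken by the start of their gene symbols. Assembly factors and other genes with the same letters, such as RPL17-C18orf32, were thus included, and family members with other symbols were left out. These families were looked at after their values were seen, and their counts are a description. Of proteasome subunit genes with enough reads 21 of 40 (52.5%) were outside genes, and of ATP synthase genes 9 of 15. Genes with symbols starting with RPL or RPS and a digit, mostly ribosomal protein genes, were outside genes in 28 of 72 (38.9%). For cytochrome c oxidase genes it was 7 of 18 (38.9%) and for complex I genes 14 of 38 (36.8%). Zinc finger genes, at 28 of 279 (10.0%), solute carriers, at 15 of 104 (14.4%), and initiation factors, at 7 of 46 (15.2%), were near the background. Among these RPL and RPS genes, RPL11 had 97.7% of 3633 reads outside in FH-DHX36-E335A and 0 of 213 in FH-DHX36. Of the 21 with enough FH-DHX36 reads, 10 met the rule again, beside 39.6% over all outside genes. In ATP5J, a coupling factor of the ATP synthase, the share was 83.6% of 6917 and 91.6% of 965 reads, and in ATP5H 98.8% of 2772 and 0 of 627. Of the 15 proteasome genes with enough FH-DHX36 reads, 3 met the rule again, beside the same 39.6%, among them PSMD8 with 72.7% of 8031 and 54.0% of 1164.

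**Figure D4:**
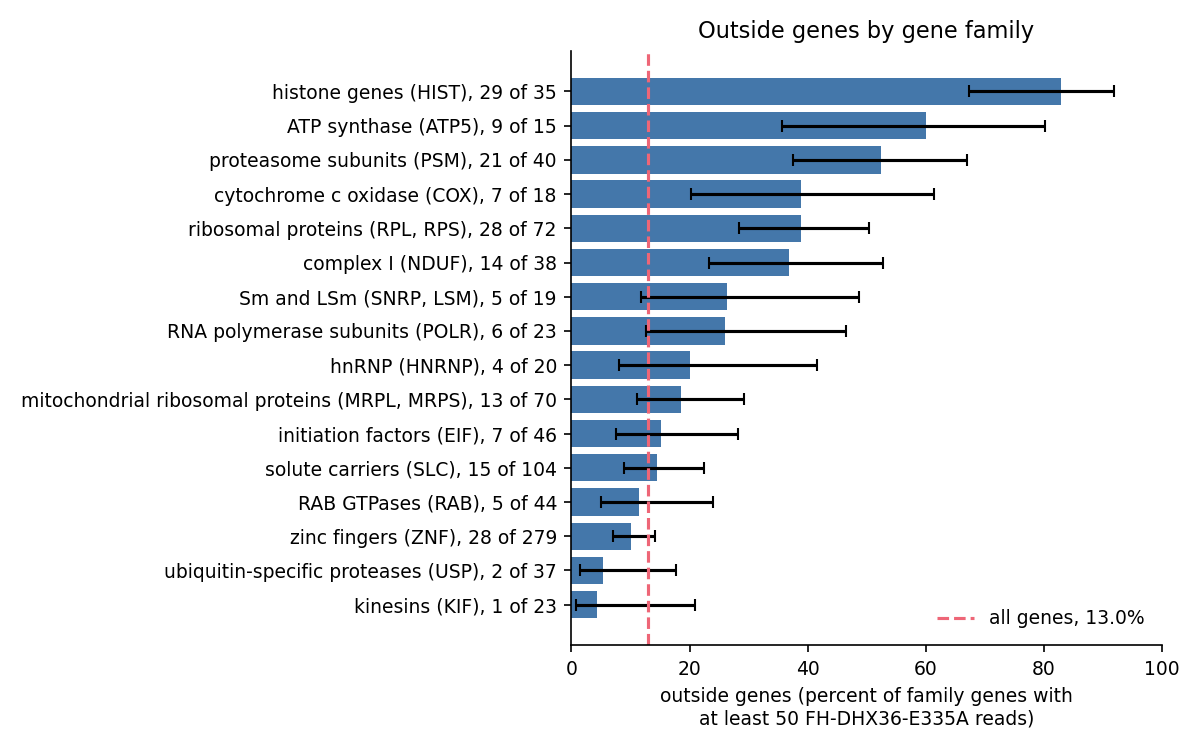
Percent of the genes of each family with at least 50 FH-DHX36-E335A reads that were outside genes (x axis), with 95% Wilson intervals and the count beside each name. Families are taken by the start of gene symbols. The dashed line is the share over all genes, 13.0%, and the bars range from 82.9% for histone genes to 4.35% for kinesins.

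The outside genes had short transcripts and abundant RNA. The canonical transcript had a median length of 2157 nt, against 3814 nt in the other genes, with a 3'UTR of 677 against 1726 nt, a CDS of 1014 against 1434 nt and a 5'UTR of 95 against 152 nt. The share of outside genes fell with CDS length, from 27.7% of genes under 500 nt to 4.81% of genes of 4000 nt or more, and with 3'UTR length, from 28.7% under 500 nt to 5.97% from 4000 nt on. The rule favours such a fall, since a longer CDS or 3'UTR can hold more of the inside reads that lower the share. In the other genes the 3'UTR held 62.1% and the CDS 18.4% of FH-DHX36-E335A reads. How much of the fall comes from the rule was not tested. RNA abundance, in the units of the authors' RNA-seq and recovered from their normalized values, had a median of 19.2 in outside genes and 5.82 in the others. Of genes at 1000 or more, 49.6% were outside genes, and of genes at 1 to under 10, 7.68%. The families differed in length as well. The median CDS was 393 nt in the histone genes with enough reads. It was 463.5 nt in the RPL and RPS genes and 1761 nt in the zinc finger genes. The part of length and abundance in the family counts was not tested. The genes that met the rule again in FH-DHX36 and those at 0 there had median transcript lengths of 1924 and 2204 nt, with overlapping 95% intervals of 1686 to 2165 and 1877 to 2445 nt.

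**Figure D5:**
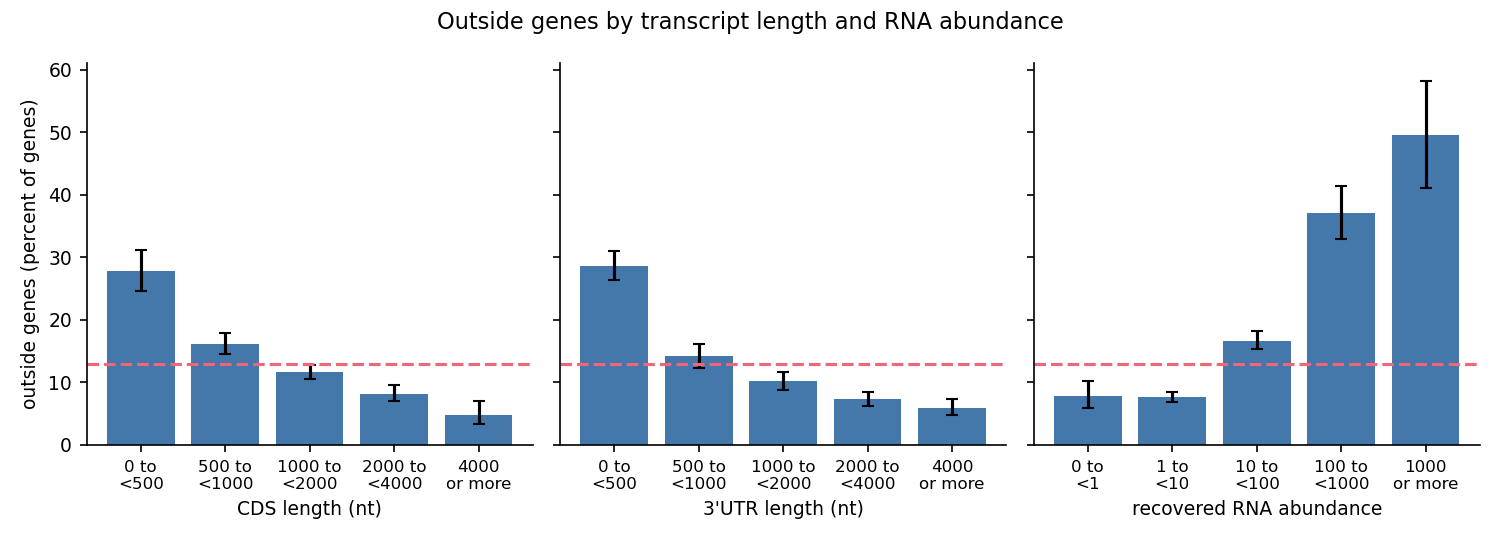
Percent of genes with at least 50 FH-DHX36-E335A reads that were outside genes (y axis), by CDS length, 3'UTR length and recovered RNA abundance in the authors' RNA-seq units (x axes, bins), with 95% Wilson intervals and the share over all genes, 13.0%, as a dashed line. The share falls from 27.7% to 4.81% with CDS length, which the rule favours, and reaches 49.6% in the bin of highest abundance.

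Other annotation features were compared as well. A transcript marked for nonsense-mediated decay was annotated for 52.6% of outside genes (49.5 to 55.7) and 47.7% of the others (46.5 to 48.9), and one with a retained intron for 61.5 and 60.2%. A small nucleolar, Cajal body or microRNA gene lay within 7.95 and 9.10%, and another gene overlapped on the same strand for 33.7 and 36.9%. A processed pseudogene named after the gene was annotated for 21.8% (19.4 to 24.4) and 16.2% (15.4 to 17.1). Within bins of abundance the order was mostly the other way. The share was lower in outside genes in 4 of 5 bins, with 21.3 and 23.9% at an abundance of 10 to under 100, 37.5 and 49.2% at 100 to under 1000, and 52.5 and 87.5% at 1000 or more, and at 1 to under 10 it was 10.8 and 10.2%.

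Runs of guanines near the start and stop codons were more frequent in outside genes. The pattern searched was at least 4 runs of 2 or more G, spaced by 1 to 7 nt of any base, on the sense strand in the 103 nt around the codon. A gene was searched only where its transcript had an ATG or stop codon with 50 nt on each side. For the start codon that left 748 of 1017 outside genes and 5714 of 6848 others. Histone genes with a short 5'UTR, such as HIST1H4C, were left out. Around the start codon the pattern was found in 405 of 748 outside genes (54.1%, 50.6 to 57.7), 2474 of 5714 other genes (43.3%, 42.0 to 44.6) and 38.3% of all protein-coding genes of the table with such a window. Around the stop codon it was found in 256 of 991 (25.8%, 23.2 to 28.6), 1177 of 6791 (17.3%, 16.4 to 18.3) and 19.8%. The higher frequency at the start codon held in each of 5 bins of CDS length, with 51.7 to 62.5% in outside genes and 38.2 to 44.8% in the others. The guanine content of the whole transcript was also higher, at a median of 25.4 and 23.7%. Outside genes that met the rule again in FH-DHX36 held the pattern at the start codon in 59.9% of 157 (52.1 to 67.2). Those at 0 there held it in 55.9% of 188 (48.7 to 62.8), with overlapping intervals. Around the stop codon the order was the reverse, with 24.3% (19.2 to 30.1) and 32.9% (27.3 to 39.1), and the intervals overlapped again.

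Matches in genes with many reads show what this pattern looks like, with the guanine runs in capitals. A spacer can itself be G, so an unbroken stretch of capitals, as at the end of the UBE2E1 match, can count as separate runs. A match is a string of letters and not an observed structure. PPP1CC lies at chr12:111180523-111180536 (minus), UBE2E1, a ubiquitin-conjugating enzyme, at chr3:23848739-23848754 (plus), CUTC at chr10:101492079-101492102 (plus), OAZ1 at chr19:2269564-2269583 (plus), RBM17 at chr10:6131125-6131148 (plus) and ATP5J at chr21:27107194-27107204 (minus).
PPP1CC G runs: GGGaGGGtcGGcGG
UBE2E1 G runs: GGGGtGGGGtGGGGGG
CUTC G runs: GGcgcacgaGGGaGGaacgcgtGG
OAZ1 G runs: GGaGGttttcctGGtttcGG
RBM17 G runs: GGctcatGGGcagagtcGGccGGG
ATP5J G runs: GGtGGcGGcGG

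These matches begin 22 to 50 nt upstream of the A of the start codon. The genes shown differ in the FH-DHX36 columns. PPP1CC (89.6%), CUTC (99.0%), OAZ1 (97.2%) and ATP5J (91.6%) had most of their FH-DHX36 reads outside, UBE2E1 had 21.9% of 776 reads outside, and RBM17 had none.

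The balance of reads between the PAR-CLIPs was near the background. Their reads made up 16.5% of all crosslinked reads in FH-DHX36-E335A and 19.4% in FH-DHX36. The share of all reads was larger in FH-DHX36 for 355 of the 1025 genes (34.6%), against 30.2% over all 7899 genes. Among genes with at least 50 reads in both, it was larger for 325 of 623 (52.2%), against 51.3% over all 4248. Among these 623 genes, the ratio of the read shares, FH-DHX36 over FH-DHX36-E335A, was lowest for PAIP2, a regulator of poly(A)-binding protein, at 0.051 with 59 and 4689 reads, followed by KITLG (0.110), ZNF652 (0.114), HOXB7 (0.125) and VPS37B (0.128). It was highest for MT-ND4L at 25.2 and B4GALNT4 at 19.8, followed by PHKB, GON4L and POLR1C. In B4GALNT4, PHKB and GON4L the FH-DHX36 reads were intronic for 682 of 717, 220 of 220 and 252 of 252 reads.

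Scaled to RNA abundance, crosslinking was low in the outside genes. NXPM, the authors' crosslinked reads scaled to the library and divided by mRNA abundance, had a median of 2.95 in FH-DHX36-E335A (95% interval 2.53 to 3.52), against 7.91 in the other genes, and of 3.22 and 9.02 in FH-DHX36. Their reads were not fewer, with a median of 526 and 409 in FH-DHX36-E335A, so that the lower NXPM went with the higher abundance that divides it. Of genes that reached an abundance of 1, NXPM in FH-DHX36-E335A went up to 258 in P2RY11, followed by 235 for KITLG, a ligand of the receptor KIT, 228 for CASP8AP2, 215 for HLTF and 158 for SOWAHC. For 6 genes, among them ANKRD28, PIGY and MT-ND4L, the abundance was practically 0, and their NXPM rests on the constant added to it.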

How the data were processed

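The PAR-CLIP libraries came from HEK293 cell lines with inducible FH-DHX36 or FH-DHX36-E335A. The authors converted sequencer output with bcl2fastq 2.17.1 per their processing notes, mapped reads to hg19, called clusters with PARalyzer in PARpipe at default settings and annotated them with GENCODE v19. Further program versions are not given in the sources used here, and neither is the treatment of multiply mapping reads. The deposited table of 26490 genes has 30 columns of values, 15 per cell line, and each was mapped to a cell line as the authors' value. Crosslinked reads were deposited as counts without normalization. The number of clusters accompanied each count. The deposited NXPM is a score that the authors made by scaling crosslinked reads to the PAR-CLIP total and dividing by mRNA abundance. Its values correspond to abundance plus 0.001, which was used to recover abundance.

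Reads outside were the total minus the 5'UTR, CDS, 3'UTR and intron reads. Identifiers were matched to GENCODE release 44 on GRCh37, the same build with a later annotation, for 23916 of 26490 genes and 1019 of the 1025 outside genes, 87 of them by older symbols of RefSeq (GRCh38.p14, no coordinates used). Lengths and sequences are those of the canonical coding transcript, which 1017 genes had. CDS lengths include the stop codon. The scripts used Python 3.11.15, pandas 2.3.3, numpy 2.4.6, scipy 1.17.1 and statsmodels 0.14.6, and the rule was tested on simulated data. Intervals are 95% Wilson intervals of shares and binomial intervals of medians. No p-value was computed, since there is 1 value per cell line.

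The outside genes and the lists were chosen with earlier results of these data known. Named by rule were the 15 outside genes with the most reads (the 5 protein-coding ones with the most are among them), the 5 with the highest and the 5 with the lowest FH-DHX36 share, the 3 nearest above and below the threshold, the 5 highest and lowest ratios of read shares, the 5 highest NXPM values and members of the lists of noncoding, mitochondrial and histone genes. The families besides histones, the genes with all clusters outside, the examples of genes with or without outside reads in FH-DHX36 or with them in FH-DHX36 alone and the guanine-run matches were chosen after their values were seen. Alternatives were other read minimums, other shares, clusters in place of reads, other gene classes and other scalings.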

Additional observations from a re-analysis of the deposited data

How the results depend on the processing

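Of 31 values under alternative settings, 19 moved by less than 1.5 times for a count of genes or stayed within the 95% interval of the reported value, and 12 moved further. The number of outside genes was 505 and 282 where the share had to reach 75% or 90%, and 650 where the share was taken over clusters. The median FH-DHX36 share of 29.6% became 53.2% where the reads of the same 623 genes were summed first, since genes with many reads weigh more there. lncRNA genes numbered 2 by RefSeq class and 2 by the form of the name, in place of 1. The outside genes' part of all crosslinked reads was 9.83% and 5.03% in FH-DHX36-E335A, and 12.2% and 5.42% in FH-DHX36, at shares of 75% and 90%. Without the gene with the most reads it was 16.0% and 17.97%. Scaled to outside reads instead of all reads, 438 in place of 355 genes had the larger share in FH-DHX36. No paired analysis was possible because the table gives 1 value per cell line, and leaving out a replicate could not be run for the same reason. FH-DHX36 had fewer crosslinked reads in all, and for 402 outside genes under 50 were listed there, too few for a share to be read. The part of depth in this was not tested. What the outside reads lie on and how multiply mapping reads were placed was not tested.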
